A study of Mus musculus with 18 samples.

Results

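Eosinophil identity is set by a small group of transcription factors, and 10 of their genes are described here in mouse eosinophils kept with microbial or cytokine stimuli. They comprise the GATA factors *Gata1* and *Gata2* and the GATA cofactor gene *Zfpm1*, the ETS factor gene *Spi1*, the C/EBP genes *Cebpa*, *Cebpb*, *Cebpd* and *Cebpe*, and the inhibitor genes *Id1* and *Id2*. Members were taken by symbol, through the Ensembl identifier of each gene, and are 10 of the 55029 genes listed for the *E. coli* and IFN-γ libraries and of the 54232 listed for the IL-4 libraries. The cells came from the peritoneal cavity of C57BL/6 NJ.1638 mice, whose *Il5* transgene raises eosinophil numbers, and were enriched by removing cells bound by anti-Thy1.2 and anti-B220 beads, and age and sex were not given in the sources used here. They were incubated for 18 h with heat-inactivated *E. coli*, with IFN-γ at 50 ng/ml, with IFN-γ at 50 ng/ml and *E. coli* together, or with IL-4 at 100 ng/ml, in 3 libraries each. A further 6 libraries held unstimulated eosinophils, for which no time in culture was given. All groups carry the transgene, so these are cells that matured under excess IL-5.

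GATA-1 is required for the eosinophil lineage, GATA-2 acts in progenitors and in mast cells and basophils, and FOG-1, the product of *Zfpm1*, binds GATA factors and restrains eosinophil genes in progenitors. PU.1, encoded by *Spi1*, together with C/EBPα and C/EBPε drives granulocyte genes, and C/EBPβ and C/EBPδ are the family members best known for inducible expression in inflamed tissue. ID1 and ID2 lack a DNA-binding region and hold E proteins away from DNA.

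The libraries fell into a 12-library set and a 6-library set by the layout of their files. Unstimulated libraries a, b and c (controls a to c below) share the layout of the *E. coli*, IFN-γ and both-stimuli libraries, whereas d, e and f (controls d to f) share that of IL-4. Counts on genes ranged from 1562034 to 2419241 for controls a to c, around a median of 2211861. The *E. coli* libraries had 1980073 to 2734041 (median 2318235), those with IFN-γ alone 1654831 to 2006059 (median 1859508), and those given both stimuli 1523808 to 1970637 (median 1719468). Totals were higher in controls d to f, at 3625036 to 6482289 (median 5294968), and in the IL-4 libraries, at 3827767 to 5909700 (median 5121421). In the 12-library set no gene exceeded 4095 counts, the number a 6-base molecular identifier with 4096 sequences allows, while the highest gene of each IL-4 set library had 87377 to 191131 counts. Levels are therefore compared within a set only. They are given as normalized CPM, in which counts are scaled to a common library total after TMM adjustment, and a change was called at an adjusted p under 0.05 in edgeR's quasi-likelihood test across all genes. The authors write of biological replicates, but nothing in the labels ties the libraries of a group to separate mice or cultures, so the p-values measure the spread between these libraries, which may be technical.

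The eosinophil label was checked against marker genes. The summed level of 9 eosinophil markers was 2452 to 3112 normalized CPM in controls a to c, 2010.5 to 2204 after *E. coli*, 2155 to 2649 after IFN-γ and 1934 to 2165 after both, and *Ccr3*, the eotaxin receptor gene, was the most abundant marker in each of the 18 libraries. For the 6-library set the sum was 2759 to 3665 in unstimulated libraries and 2665 to 2797 after IL-4. Without *Ccr3* the other markers summed to 1189 to 1408 in controls a to c, 815 to 837 after *E. coli*, 703 to 870 after IFN-γ and 487 to 500 after both. In the 6-library set they summed to 895 to 992 in unstimulated libraries and 1406 to 1432 after IL-4. Of the granule genes, *Epx*, encoding eosinophil peroxidase, was at 0 counts in 5 libraries and *Prg3* in 3. T cell markers summed to 5.7 to 9.32 normalized CPM in controls a to c, with *Cd3e* and *Cd8a* at 0 in 15 of 18, and the mesothelial sum did not exceed 1.7 in any library. Macrophage markers, led by *Csf1r* in the 12-library set and by *C1qc* or *C1qb* in the other, summed to 785 to 900.2 in controls a to c and to 1954 to 2546 in controls d to f. *Csf1r* and *Itga2b* are not confined to the cell types they mark. A smaller share of a contaminating cell type and less RNA per cell cannot be told apart in these bulk libraries. Within the IL-4 set, control e stood apart for several of the 10 genes, with *Gata1* at 431 normalized CPM against 270.2 and 239 in controls d and f, so the IL-4 results that it moved most are also given without it.

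Against controls a to c, *E. coli* raised 4 of the 10 genes, *Gata1*, *Gata2*, *Zfpm1* and *Cebpb*, where 13.5% of all genes tested were called higher, and lowered 1, *Cebpa*, where 16.7% were called lower. After IFN-γ, *Gata1* and *Cebpb* rose and *Gata2*, *Cebpa*, *Cebpd*, *Cebpe* and *Id1* fell, 2 and 5 of 10 against 15.6% and 16.0% of all genes. After both stimuli *Gata1* and *Cebpb* rose and *Cebpa*, *Cebpd*, *Cebpe*, *Id1* and *Id2* fell, again 2 and 5 of 10, against 23.9% and 25.2%. After IL-4, *Id1* rose and *Cebpa* and *Cebpb* fell, 1 and 2 of 10 against 5.97% and 4.35%. All 10 genes passed the filter on low counts in both sets. The median log2 fold change of the 10 was 0.15 after *E. coli*, -0.36 after IFN-γ, -0.34 after both and 0.00 after IL-4, where the medians of all genes were -0.02, -0.03, -0.04 and 0.00. Scaling by library totals alone, without TMM factors, moved the median of all genes by -0.18 after IFN-γ, by -0.25 after both stimuli, by -0.23 for both stimuli against *E. coli* and by -0.15 for IFN-γ against *E. coli*, so the fold changes below are relative to the median gene. The 3 comparisons with controls a to c share these controls.

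**Figure D1:**
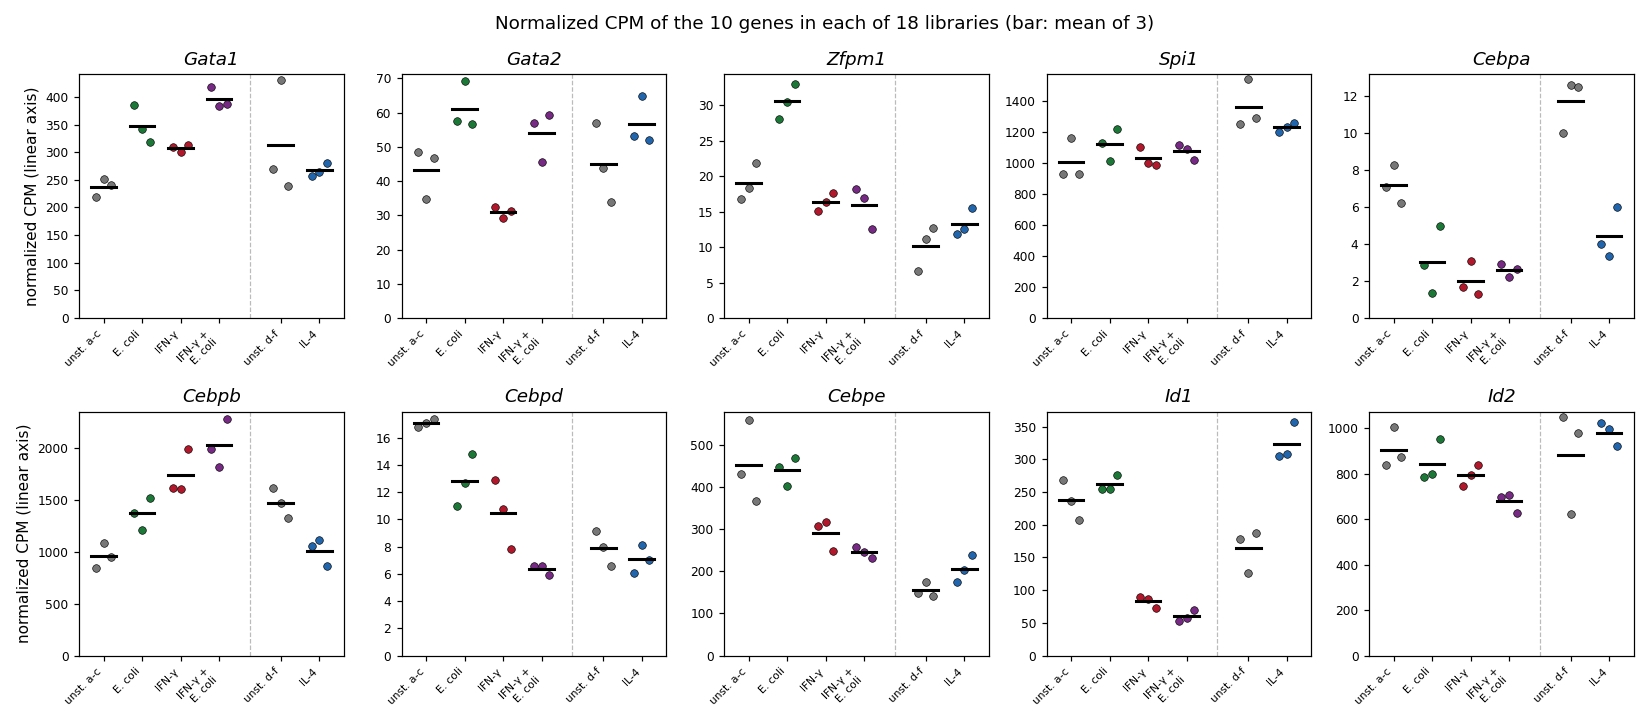
Normalized CPM of each of the 10 genes (linear vertical axes that start at 0) in the 18 libraries. Each point is a library, each bar the mean of 3, and a dashed line separates the IL-4 set. *Id1* stood at 72.6 to 89 after IFN-γ and at 52.6 to 69.9 after both stimuli, below the 208 to 269 of controls a to c.

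*Gata1* (ENSMUSG00000031162, chrX:7959260-7978071, minus strand on GRCm38) encodes the zinc-finger factor without which eosinophils do not form. It stood at 219, 252 and 239.9 normalized CPM in controls a, b and c, at 385, 341 and 318 in the 3 *E. coli* libraries, at 309.5, 300.4 and 313 after IFN-γ and at 418, 384 and 387 after both stimuli. Every stimulated library lay above every unstimulated one, and the groups were ordered as unstimulated, IFN-γ, *E. coli*, both. *Gata1* rose after *E. coli* (log2 fold change 0.56 ± 0.10, adjusted p = 0.000459), after IFN-γ (0.38 ± 0.11, adjusted p = 0.0103) and after both (0.74 ± 0.11, adjusted p = 1.13e-05, or 0.49 when scaled by library totals alone). The neighbours IFN-γ and *E. coli* did not differ by the test (-0.18 ± 0.10, adjusted p = 0.228, or -0.33, adjusted p = 0.0143 with library totals alone, with 0.0143 to 0.62 over all alternatives), nor did *E. coli* and both (0.19 ± 0.10, adjusted p = 0.181, and -0.05 when scaled by library totals alone). The rise after IFN-γ was no longer called with library totals alone (0.21, adjusted p = 0.112), in a fit of all 18 libraries (0.42, adjusted p = 0.0504) or without control a (0.33, adjusted p = 0.0567). Its adjusted p ran from 0.00239 to 0.112 over all alternatives. Levels of *Gata1* were 270.2, 431 and 239 in controls d, e and f and 257, 265 and 280.2 after IL-4. The IL-4 libraries lay between the lowest and the highest unstimulated one, with a log2 fold change of -0.23 ± 0.20, adjusted p = 0.503, which became 0.07, adjusted p = 0.752 without control e.

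*Gata2* (ENSMUSG00000015053, chr6:88193891-88207032, plus strand) encodes the GATA factor of progenitors and of mast cells and basophils. It was at 48.4, 34.9 and 46.7 normalized CPM in controls a to c, 57.5, 69.2 and 56.8 after *E. coli*, 32.5, 29.2 and 31.4 after IFN-γ and 57, 45.5 and 59.4 after both stimuli. The IFN-γ libraries lay under all others of the set and the *E. coli* libraries over the unstimulated ones, while both stimuli overlapped with unstimulated cells. *Gata2* rose after *E. coli* (log2 fold change 0.48 ± 0.15, adjusted p = 0.021), a call lost without control b (adjusted p = 0.0762) or without *E. coli* library 2 (adjusted p = 0.114), with 0.0151 to 0.114 over all alternatives. It fell after IFN-γ (-0.50 ± 0.17, adjusted p = 0.0302), a call kept in 6 of 14 alternatives. It was lost with DESeq2 (adjusted p = 0.0745), without the filter (0.0748), in a fit of 18 libraries (0.0936) and without control a (0.137) and c (0.089) or IFN-γ library 1 (0.0563), 2 (0.125) and 3 (0.0798), over a range of 0.00765 to 0.137. IFN-γ and *E. coli* differed (-0.99 ± 0.16, adjusted p = 0.000134), as did both stimuli and IFN-γ (0.79 ± 0.17, adjusted p = 0.00474). These calls held in every alternative run except a change by a factor of 2, which neither reaches. Both stimuli did not differ by the test from *E. coli* (-0.19 ± 0.15, adjusted p = 0.362, or -0.43, adjusted p = 0.0481 with library totals alone, with 0.0481 to 0.766 over all alternatives) or from unstimulated cells (0.29 ± 0.16, adjusted p = 0.147, or 0.03 with library totals alone). After IL-4 *Gata2* was at 53.3, 65 and 52.1 against 56.9, 43.9 and 34 in controls d, e and f, overlapping groups with a log2 fold change of 0.35 ± 0.20, adjusted p = 0.297, which ran from 0.18 to 0.54 on leaving out 1 library.

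*Zfpm1* (ENSMUSG00000049577, chr8:122282141-122337251, plus strand), the gene of FOG-1, stood at 16.8, 18.4 and 21.9 normalized CPM in controls a to c and at 28.1, 30.4 and 33.1 after *E. coli*. After IFN-γ it was at 15.1, 16.4 and 17.7 and after both stimuli at 18.3, 17 and 12.5. Only the *E. coli* libraries stood apart, above the other 9 of the set. *Zfpm1* rose after *E. coli* (log2 fold change 0.68 ± 0.18, adjusted p = 0.007), and it was lower after both stimuli than after *E. coli* alone (-0.93 ± 0.19, adjusted p = 0.00107) and lower after IFN-γ than after *E. coli* (-0.90 ± 0.19, adjusted p = 0.00145). The unstimulated, IFN-γ and both-stimuli groups overlapped, with log2 fold changes against unstimulated cells of -0.22 ± 0.20, adjusted p = 0.452, for IFN-γ and -0.26 ± 0.21, adjusted p = 0.328, for both, the latter called with library totals alone (-0.51, adjusted p = 0.0469, with 0.0469 to 0.747 over all alternatives). *Zfpm1* was at 6.67, 11.1 and 12.6 in controls d to f and 11.8, 12.6 and 15.6 after IL-4, which overlapped. The log2 fold change was 0.37 ± 0.27, adjusted p = 0.433, and ran from 0.16 to 0.54 on leaving out 1 library.

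The list of other GATA family and GATA complex genes held 10 genes, of which 5 were tested in the 12-library set and 6 in the other. Counts of called genes in this list and the later ones stand beside the shares of all genes called, given above for the same comparisons. *Gata3*, *Gata4*, *Gata5* and *Zfpm2* were too low in both sets, with no library above 8 counts, and *Tal1* was too low in the former. After *E. coli* 0 rose and 1 fell of 5 (list median log2 fold change -0.26 against -0.02 for all genes). After IFN-γ 1 rose and 1 fell (-0.25 against -0.03), and after both stimuli 0 rose and 4 fell (-0.51 against -0.04). The gene that fell after IFN-γ was *Gata6*, a marker of large peritoneal macrophages, at 14, 2 and 20 counts in controls a, b and c and 3, 3 and 2 after IFN-γ, groups that overlapped (-1.76 ± 0.66, adjusted p = 0.0491). *Lmo2*, the bridging protein gene of the GATA and TAL1 complex, averaged 113 ± 7.34 normalized CPM in unstimulated cells, 63.3 ± 10.3 after *E. coli*, 148 ± 9.74 after IFN-γ and 88.2 ± 12.3 after both (SD, n = 3). It fell after *E. coli* (log2 fold change -0.84 ± 0.13, adjusted p = 8.04e-05), rose after IFN-γ (0.39 ± 0.13, adjusted p = 0.0252) and fell after both (-0.36 ± 0.13, adjusted p = 0.0307). *Gfi1b*, a repressor gene of erythroid and megakaryocytic cells, fell after both (-0.61 ± 0.18, adjusted p = 0.00847), as did the bHLH gene *Lyl1* (-0.59 ± 0.15, adjusted p = 0.00285) and *Ldb1*, whose product holds the complex together (-0.51 ± 0.17, adjusted p = 0.0158). After IL-4, *Lmo2* was the 1 gene of 6 that rose, from 39.9 ± 1.02 to 70.3 ± 8.64 (0.81 ± 0.14, adjusted p = 0.00571), and 0 fell (0.08 against 0.00).

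GATA genes are also transcribed in mast cells, basophils, erythroid cells and megakaryocytes, whose markers were summed beside them. Mast cell markers (7 genes) were at 10.1, 8.87 and 7.43 normalized CPM in controls a, b and c, 10.2, 6.69 and 34.6 after *E. coli*, 30.2, 14.4 and 13.1 after IFN-γ and 36.5, 72.9 and 66.6 after both stimuli. The most abundant of them was *Tpsb2* or *Cma1* in these 12 libraries, while *Mcpt4* was at 0 in 11, *Fcer1a* in 10 and *Ms4a2* in 11 of all 18. They were at 8.61, 6.96 and 7.36 in controls d to f and 17.5, 8.31 and 21 after IL-4. Of the basophil markers, *Mcpt8* was at 0 in 17 libraries and *Prss34* in 12, and *Cd200r3* made up nearly all of a sum of 24.2 to 37.2 in controls a to c, 24.2 to 37.4 after *E. coli*, 30.8 to 42.5 after IFN-γ, 31.7 to 54.8 after both, 18.5 to 28.1 in controls d to f and 7.78 to 13.7 after IL-4. Erythroid markers, mostly globin genes with *Alas2* at 0 in 14 libraries, summed to 45.8 to 76.7 in controls a to c, 59.2 to 128 after *E. coli*, 53.6 to 137 after IFN-γ and 110.1 to 158 after both. Megakaryocyte and platelet markers, led by *Pf4* except in IL-4 libraries 1 and 2, where *Itga2b* was highest, and with *Gp9* and *Gp1bb* at 0 in 18 libraries, summed to 376 to 576, 422 to 611, 382 to 402 and 413 to 601 in the same order. For the 6-library set the erythroid sum was 93.4 to 105 without and 74.4 to 99.3 after IL-4, and the megakaryocyte sum 617 to 747 and 529.6 to 597. The mast cell sums of the 3 both-stimuli libraries were above those of all other libraries of their set, narrowly so against *E. coli* library 3 (36.5 against 34.6). The part of these cell types in the *Gata1*, *Gata2* and *Zfpm1* values was not tested.

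*Spi1* (ENSMUSG00000002111, chr2:91082390-91115756, plus strand), the gene of PU.1, stood at 932, 1162 and 928 normalized CPM in controls a to c, 1132, 1013 and 1221 after *E. coli*, 1104, 1002 and 987 after IFN-γ and 1117, 1093 and 1022 after both stimuli. All 4 groups overlapped, and no stimulus was called, with log2 fold changes of 0.16 ± 0.12, adjusted p = 0.34, after *E. coli*, 0.04 ± 0.12, adjusted p = 0.852, after IFN-γ and 0.10 ± 0.12, adjusted p = 0.513, after both, values that became -0.13 and -0.15 for IFN-γ and both when scaled by library totals alone. Against *E. coli*, IFN-γ (-0.12 ± 0.12, adjusted p = 0.492) and both (-0.06 ± 0.12, adjusted p = 0.745) were not called, but were with library totals alone (-0.27, adjusted p = 0.0342, and -0.29, adjusted p = 0.0211) and with the identifier correction described below (-0.43, adjusted p = 0.00529, and -0.40, adjusted p = 0.00791), with 0.00529 to 0.806 and 0.00791 to 0.989 over all alternatives. Both against IFN-γ was at 0.06 ± 0.12, adjusted p = 0.803, and -0.01 with library totals alone. Its counts reached 74% of the 4096 identifier sequences. When each count of the set was corrected for identifiers met more than once, an alternative chosen after seeing the ceiling, *Spi1* was called higher after *E. coli* (0.37, adjusted p = 0.0135, with 0.0135 to 0.62 over all alternatives), and the values after IFN-γ and both became -0.06 and -0.03. Within the 6-library set *Spi1* was at 1253, 1543 and 1288 in controls d, e and f and at 1198, 1234 and 1258 after IL-4, which overlapped (-0.15 ± 0.11, adjusted p = 0.466, or -0.05 without control e). Macrophages and B cells also transcribe *Spi1*. Macrophage markers (7 genes) summed to 900.2, 785 and 879 in controls a, b and c, 641, 585 and 925 after *E. coli*, 1209.6, 1159 and 1112 after IFN-γ and 982, 1035 and 1195 after both, and in the IL-4 set to 1954, 2282 and 2546 without and 1781, 1708 and 1978 after IL-4. B cell markers, led by *Cd79a* in the former set, summed to 53.3 to 91.3 in controls a to c, 18.7 to 32.6 after *E. coli*, 28.8 to 38.1 after IFN-γ, 54.8 to 72.3 after both, 5.3 to 13.8 in controls d to f and 19.1 to 31.1 after IL-4. Their part in the *Spi1* values was not tested.

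Among 11 other ETS, IRF and RUNX genes, 10 were tested in each set. After *E. coli* 4 rose and 2 fell (list median 0.24 against -0.02 for all genes), after IFN-γ 3 rose and 3 fell (0.16 against -0.03), after both 4 rose and 2 fell (0.23 against -0.04) and after IL-4 3 rose and 2 fell (0.28 against 0.00). *Runx1*, a partner of PU.1 in myeloid genes, rose after *E. coli* (log2 fold change 1.02 ± 0.12, adjusted p = 2.77e-06), fell after IFN-γ (-0.52 ± 0.13, adjusted p = 0.00396) and fell after both (-0.69 ± 0.13, adjusted p = 0.000223), and its interaction was called (-1.19 ± 0.18, adjusted p = 0.000627). *Irf8*, the IFN-inducible factor gene of monocytes, averaged 16.9 ± 3.09 normalized CPM in unstimulated cells, 63.3 ± 14.8 after IFN-γ and 65.6 ± 15.5 after both, and rose after each of them (1.88 ± 0.27, adjusted p = 3.32e-05, and 1.93 ± 0.27, adjusted p = 1.17e-05). *Ets2* rose after both (1.38 ± 0.14, adjusted p = 1.81e-07), and *Ets1* after *E. coli* (1.22 ± 0.19, adjusted p = 6.13e-05) and after both (1.28 ± 0.19, adjusted p = 2.46e-05). *Spic*, the ETS gene of red pulp macrophages, fell after *E. coli* from 11.6 ± 0.808 to 1.81 ± 1.85 (-2.79 ± 0.47, adjusted p = 0.000165), and also fell after IFN-γ (-2.10 ± 0.46, adjusted p = 0.00187), after both (-1.31 ± 0.43, adjusted p = 0.0158) and after IL-4 (-1.96 ± 0.52, adjusted p = 0.0396). The B cell ETS gene *Spib* fell after IFN-γ (-1.51 ± 0.55, adjusted p = 0.0436) and after *E. coli*, from 5.49 ± 2.08 to 1.87 ± 1 (-1.62 ± 0.51, adjusted p = 0.0226), where the B cell marker sum went from 53.3 to 91.3 to 18.7 to 32.6. That sum's part in the *Spib* value was not tested. After *E. coli* the means of *Spic* and *Spib* lay near the floor of 3 counts (1.10 to 1.97 CPM in that set), so their fold changes there are poorly determined. After IL-4, *Irf4*, known for its part in IL-4 responses of macrophages, rose from 0.909 ± 0.523 to 6.21 ± 0.841 (2.71 ± 0.46, adjusted p = 0.00427). Its mean in controls d to f lay near the floor, 0.463 to 0.828 CPM in that set.

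*Cebpa* (ENSMUSG00000034957, chr7:35119293-35121928, plus strand) encodes C/EBPα, needed at the entry into the granulocyte lineage. It was the member with the fewest counts, 19, 13 and 15 in controls a, b and c, 7, 4 and 10 after *E. coli*, 3, 6 and 2 after IFN-γ and 4, 4 and 4 after both stimuli. As normalized CPM these were 7.08, 8.24 and 6.19 in unstimulated libraries, 2.86, 1.34 and 4.94 after *E. coli*, 1.68, 3.08 and 1.31 after IFN-γ and 2.92, 2.19 and 2.64 after both. IFN-γ libraries 1 and 3 did not exceed the floor of 3 counts. Every stimulated library lay below every unstimulated one, and the 3 stimulated groups overlapped among themselves. The ratio of summed counts to unstimulated cells, scaled by library size, was 0.4 (95% exact interval 0.227 to 0.682) after *E. coli*, 0.297 (95% exact interval 0.139 to 0.581) after IFN-γ and 0.362 (95% exact interval 0.175 to 0.693) after both, intervals that cover counting error only. *Cebpa* fell after *E. coli* (log2 fold change -1.29 ± 0.40, adjusted p = 0.021), a call lost with DESeq2 (adjusted p = 0.0904) and without control a (0.0622) or b (0.0597) or *E. coli* library 1 (0.064) or 2 (0.153), with 0.00752 to 0.153 over all alternatives. It fell after IFN-γ (-1.74 ± 0.47, adjusted p = 0.00797), called in every alternative that gave a value. It also fell after both (-1.45 ± 0.46, adjusted p = 0.0138), lost with DESeq2 (adjusted p = 0.0525) or without both-stimuli library 2 (0.0624), with 0.00432 to 0.0624 over all alternatives. In the 6-library set, *Cebpa* counts were 36, 76 and 66 in controls d, e and f and 21, 20 and 23 after IL-4, or 10, 12.6 and 12.5 and 3.99, 3.32 and 5.96 normalized CPM. All 3 IL-4 libraries lay below the 3 unstimulated ones, with a ratio of summed counts of 0.355 (95% exact interval 0.262 to 0.475), and *Cebpa* fell (-1.43 ± 0.29, adjusted p = 0.0122), a call lost without IL-4 library 1 (adjusted p = 0.0731) or 2 (0.0691), with 0.000605 to 0.0731 over all alternatives. Neutrophils and macrophages also transcribe C/EBP genes. Neutrophil markers, led by *Retnlg*, summed to 550.1 to 688 normalized CPM in controls a to c, 340.0 to 402 after *E. coli*, 625 to 734 after IFN-γ and 330.1 to 425 after both, and to 1676 to 1993 in controls d to f and 732 to 807 after IL-4. Without *Retnlg* the other 5 markers summed to 11.9 to 19.4, 45.1 to 127, 57.9 to 70.6 and 48.9 to 100.2 in the former 4 groups and to 15 to 17.4 and 13.5 to 24.6 in the latter, so the lower sums after *E. coli*, both and IL-4 were those of *Retnlg* alone. The part of these cells in the *Cebpa* values was not tested. In the main fit *Cebpa* was the only member called in the same direction with all 4 stimuli. With DESeq2 it was not, since the calls after *E. coli* and after both were lost. The share of all genes called in this way was not counted, and the *E. coli*, IFN-γ and both comparisons share controls a to c. On the opposite strand *Gm45091* overlaps 51 of the 2636 exon bases of *Cebpa*, and *Gm45091* had 1 count in 1 library and 0 in the others.

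*Cebpb* (ENSMUSG00000056501, chr2:167688915-167690418, plus strand) encodes C/EBPβ, an inducible activator of inflammatory genes in myeloid cells. It stood at 848, 1087 and 954 normalized CPM in controls a, b and c, at 1380.0, 1217 and 1523 after *E. coli*, at 1618, 1604 and 1995 after IFN-γ and at 1993, 1823 and 2284 after both stimuli. The groups ascended in that order, unstimulated, *E. coli* and IFN-γ without overlap between neighbours, and IFN-γ and both overlapping. *Cebpb* rose after *E. coli* (log2 fold change 0.51 ± 0.13, adjusted p = 0.00685), after IFN-γ (0.85 ± 0.14, adjusted p = 8.22e-05) and after both (1.08 ± 0.14, adjusted p = 2.62e-06). It was higher after both than after *E. coli* alone (0.57 ± 0.13, adjusted p = 0.00306, or 0.34, adjusted p = 0.0132 with library totals alone, with 8.25e-06 to 0.0246 over all alternatives). IFN-γ and *E. coli* did not differ by the test (0.34 ± 0.13, adjusted p = 0.0699), nor did both and IFN-γ (0.23 ± 0.13, adjusted p = 0.318, with 0.0416 to 0.671 over all alternatives). The former was called without *E. coli* library 3 (0.42, adjusted p = 0.0472) and in a fit of those 6 libraries (0.34, adjusted p = 0.0381), with 0.0013 to 0.519 over all alternatives. The counts of *Cebpb* reached 88.9% of the 4096 identifier sequences, nearer to the ceiling than any other member. Corrected for identifiers met more than once, its log2 fold changes became 1.10 after *E. coli*, 1.24 after IFN-γ and 1.60 after both, and that of IFN-γ against *E. coli* became 0.14.

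*Cebpb* went the other way in the 6-library set, and was at 1619, 1471 and 1330.2 normalized CPM in controls d, e and f and at 1057, 1113 and 863 after IL-4. The 3 IL-4 libraries lay below the 3 unstimulated ones, and *Cebpb* fell (log2 fold change -0.54 ± 0.13, adjusted p = 0.025). The call was lost without control d (-0.47, adjusted p = 0.056) or without IL-4 library 1 (-0.57, adjusted p = 0.096), 2 (-0.63, adjusted p = 0.0584) or 3 (-0.46, adjusted p = 0.102). It held without control e (-0.55, adjusted p = 0.00503), with 0.000909 to 0.102 over all alternatives. Between the same groups the neutrophil marker sum, nearly all *Retnlg* there, went from a range of 1676 to 1993 to 732 to 807 and the macrophage sum from 1954 to 2546 to 1708 to 1978, and the part of these cells in the *Cebpb* value was not tested. *Tmem189* lies on the opposite strand and overlaps 312 of the 1504 exon bases of *Cebpb* (20.7%), and whether the counting used strand is not given in the sources used here, so reads of these genes may not have been separated. *Tmem189* was at 133, 174 and 167 in controls a, b and c, 361, 358 and 389.6 after *E. coli*, 445, 555 and 604 after IFN-γ and 1031, 843 and 977 after both, and rose after each (1.23 ± 0.14, adjusted p = 1.41e-06; 1.76 ± 0.14, adjusted p = 1.3e-08; 2.59 ± 0.14, adjusted p = 2.83e-11). After IL-4 it was at 250.3, 245 and 242 against 241, 225 and 181 (0.19 ± 0.13, adjusted p = 0.405), not called. Its part in the *Cebpb* counts was not tested.

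*Cebpd* (ENSMUSG00000071637, chr16:15887286-15891031, plus strand), encoding the acute-phase factor C/EBPδ, stood at 16.8, 17.1 and 17.3 normalized CPM in controls a to c, 11, 12.7 and 14.8 after *E. coli*, 12.9, 10.8 and 7.85 after IFN-γ and 6.57, 6.57 and 5.94 after both stimuli. All 9 stimulated libraries lay below the 3 unstimulated ones, the *E. coli* and IFN-γ groups overlapped and the both-stimuli libraries were lowest. *Cebpd* fell after both (log2 fold change -1.41 ± 0.26, adjusted p = 0.000217) and was lower after both than after *E. coli* (-0.997 ± 0.27, adjusted p = 0.00846). It fell after IFN-γ (-0.68 ± 0.23, adjusted p = 0.0322), a call kept in 5 of 13 alternatives. It was lost with DESeq2 (adjusted p = 0.125), without the filter (0.118), in the fit of 18 libraries (0.0529) and without control a (0.0719), b (0.0634) and c (0.0732) or IFN-γ library 2 (0.088) and 3 (0.153), over a range of 0.00841 to 0.153. After *E. coli* it was not called (-0.42 ± 0.22, adjusted p = 0.156), nor did IFN-γ and *E. coli* differ by the test (-0.27 ± 0.24, adjusted p = 0.46) or both and IFN-γ (-0.73 ± 0.29, adjusted p = 0.118). In the 6-library set it was at 9.16, 7.95 and 6.61 in unstimulated libraries and 6.09, 8.14 and 7 after IL-4, which overlapped (-0.15 ± 0.27, adjusted p = 0.777). *Spidr*, on the opposite strand, overlaps 562 of its 3746 exon bases (15%) and averaged 21.7 ± 2.8 in controls a to c and 20.9 ± 2.08, 28.4 ± 9.37 and 29.1 ± 4.47 after *E. coli*, IFN-γ and both, none of them called. It averaged 0.715 ± 0.695 and 1.3 ± 0.527 in the IL-4 set.

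*Cebpe* (ENSMUSG00000052435, chr14:54710360-54712174, minus strand) encodes C/EBPε, which acts late in granulocyte maturation and on granule protein genes. It was at 431, 558 and 367 normalized CPM in controls a to c and 447, 403 and 469 after *E. coli*. After IFN-γ it was at 307, 317 and 248 and after both stimuli at 259, 245 and 232. The *E. coli* libraries lay within the unstimulated range, and all 6 libraries after IFN-γ lay below both of these groups. *Cebpe* fell after IFN-γ (log2 fold change -0.63 ± 0.14, adjusted p = 0.00178) and after both (-0.88 ± 0.14, adjusted p = 4.4e-05), and was lower than after *E. coli* in each case (-0.59 ± 0.14, adjusted p = 0.00314, and -0.84 ± 0.14, adjusted p = 0.000121). The IFN-γ and both-stimuli groups overlapped (-0.25 ± 0.14, adjusted p = 0.3), and *E. coli* was not called (-0.04 ± 0.14, adjusted p = 0.877). In the 6-library set *Cebpe* was at 148, 175 and 141 in controls d, e and f and 175, 203 and 239.5 after IL-4. IL-4 library 1 lay just below control e, and the log2 fold change was 0.41 ± 0.15, adjusted p = 0.112, or 0.50, adjusted p = 0.0175 without control e, which made it a call, with 0.0175 to 0.35 over all alternatives.

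Of 6 genes for partners and regulators of C/EBP proteins, 5 were tested and *Trib2* was too low. After *E. coli* 1 rose and 0 fell (list median 0.16 against -0.02 for all genes), after IFN-γ 2 rose (0.41 against -0.03), after both 3 rose (1.00 against -0.04) and after IL-4 0 were called (-0.36 against 0.00), and none of the 5 fell in these 4 comparisons. *Trib3*, a stress-induced pseudokinase gene, averaged 3.47 ± 0.506 normalized CPM in unstimulated cells, 6.32 ± 1.38 after *E. coli*, 13.1 ± 2.72 after IFN-γ and 30.3 ± 7.51 after both, and rose after IFN-γ (log2 fold change 1.92 ± 0.33, adjusted p = 0.000201) and after both (3.12 ± 0.30, adjusted p = 7.67e-08). *Trib1*, whose product directs C/EBPα to degradation through COP1, rose after *E. coli* (0.76 ± 0.11, adjusted p = 2.75e-05), IFN-γ (0.41 ± 0.11, adjusted p = 0.00768) and both (1.14 ± 0.11, adjusted p = 8.05e-08). *Ddit3*, encoding the dominant-negative partner CHOP, rose after both (1.00 ± 0.17, adjusted p = 6.78e-05). After IL-4, edgeR called 0 of the 5 at an adjusted p under 0.05, and *Trib1* had the lowest p among them (-0.60 ± 0.18, adjusted p = 0.0665).

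*Id1* (ENSMUSG00000042745, chr2:152736251-152737410, plus strand) encodes an inhibitor of E proteins that BMP and other signals induce. It stood at 269, 236 and 208 normalized CPM in controls a, b and c, 255, 255 and 276 after *E. coli*, 89, 86.1 and 72.6 after IFN-γ and 52.6, 58.1 and 69.9 after both stimuli. The unstimulated and *E. coli* groups overlapped, while every library after IFN-γ was below 90 and those after both stimuli were lowest. *Id1* fell after IFN-γ (log2 fold change -1.52 ± 0.13, adjusted p = 4.54e-08) and after both (-1.98 ± 0.14, adjusted p = 8.53e-10), to 0.35 and 0.25 of the unstimulated level, and was not called after *E. coli* (0.14 ± 0.12, adjusted p = 0.403). It was lower than after *E. coli* both in IFN-γ libraries (-1.66 ± 0.13, adjusted p = 1.03e-08) and in both-stimuli libraries (-2.12 ± 0.13, adjusted p = 6.9e-10). It was lower after both than after IFN-γ (-0.46 ± 0.14, adjusted p = 0.045), a call lost with DESeq2 (adjusted p = 0.0625), in a fit of those 6 libraries (0.0588) and without IFN-γ library 1 (0.159) and 2 (0.123) or both-stimuli library 1 (0.15) and 2 (0.141), over a range of 0.0174 to 0.159.

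Levels of *Id1* lay the other way in the 6-library set, at 178, 126 and 187 normalized CPM in controls d, e and f and 304, 308 and 357 after IL-4. Every IL-4 library lay above every unstimulated one, control e being the lowest, and *Id1* rose (log2 fold change 0.98 ± 0.16, adjusted p = 0.00371), a factor of 1.97. Without control e the value was 0.82, adjusted p = 0.000146. The call held in every alternative except a change by a factor of 2, which the main value does not reach. In the others the adjusted p ran from 1.14e-08 to 0.0286.

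*Id2* (ENSMUSG00000020644, chr12:25093799-25097140, minus strand), known for its part in innate lymphocytes and dendritic cells, stood at 838, 1003 and 871 normalized CPM in controls a to c, 783, 797 and 950.0 after *E. coli*, 746, 795 and 836 after IFN-γ and 697, 706 and 628 after both stimuli. The both-stimuli libraries lay below the other 9 of the set, and the IFN-γ libraries below the unstimulated ones but among the *E. coli* ones. *Id2* fell after both (log2 fold change -0.41 ± 0.11, adjusted p = 0.00566), lost in the fit of 18 libraries (adjusted p = 0.0695, with 1.51e-05 to 0.0695 over all alternatives), and larger with library totals alone (-0.66) and the identifier correction (-0.63). It was lower after both than after *E. coli* (-0.32 ± 0.11, adjusted p = 0.0414), a call lost with DESeq2 size factors (adjusted p = 0.058) and without *E. coli* library 1 (0.0518), 2 (0.0547) and 3 (0.186) or both-stimuli library 1 (0.0757), 2 (0.0649) and 3 (0.131), over a range of 0.000209 to 0.186, and larger with library totals alone (-0.54) and the identifier correction (-0.56). *E. coli* (-0.10 ± 0.11, adjusted p = 0.552) and IFN-γ (-0.19 ± 0.11, adjusted p = 0.224) were not called, and IFN-γ was called with library totals alone (-0.36, adjusted p = 0.00597) and with the identifier correction (-0.34, adjusted p = 0.0226), with 0.00597 to 0.626 over all alternatives. Across the 6-library set *Id2* was at 1050.4, 621 and 979 in controls d, e and f and 1023, 997 and 920.5 after IL-4. Control e alone lay below the IL-4 libraries, and the log2 fold change of 0.15 ± 0.18, adjusted p = 0.639, became -0.05, adjusted p = 0.776 without it.

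The E protein genes, whose products ID proteins bind, and the other *Id* genes gave 4 tested genes of 5 in each set, *Id4* being too low. After *E. coli* 0 were called (list median 0.35 against -0.02 for all genes), after IFN-γ 0 rose and 1 fell (-0.32 against -0.03), after both 1 rose and 0 fell (0.48 against -0.04), and after IL-4 0 were called (-0.01 against 0.00). *Tcf12* was the gene that fell after IFN-γ (log2 fold change -0.48 ± 0.16, adjusted p = 0.0332), with groups that overlapped, and *Tcf4* the gene that rose after both (0.98 ± 0.33, adjusted p = 0.0204). For *Tcf3*, encoding E2A, no stimulus was called, and after both the log2 fold change was -0.36 ± 0.22, adjusted p = 0.19. *Id3* was at 2.49 normalized CPM in controls a to c and 6.86 after both (1.30 ± 0.66, adjusted p = 0.114).

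**Figure D2:**
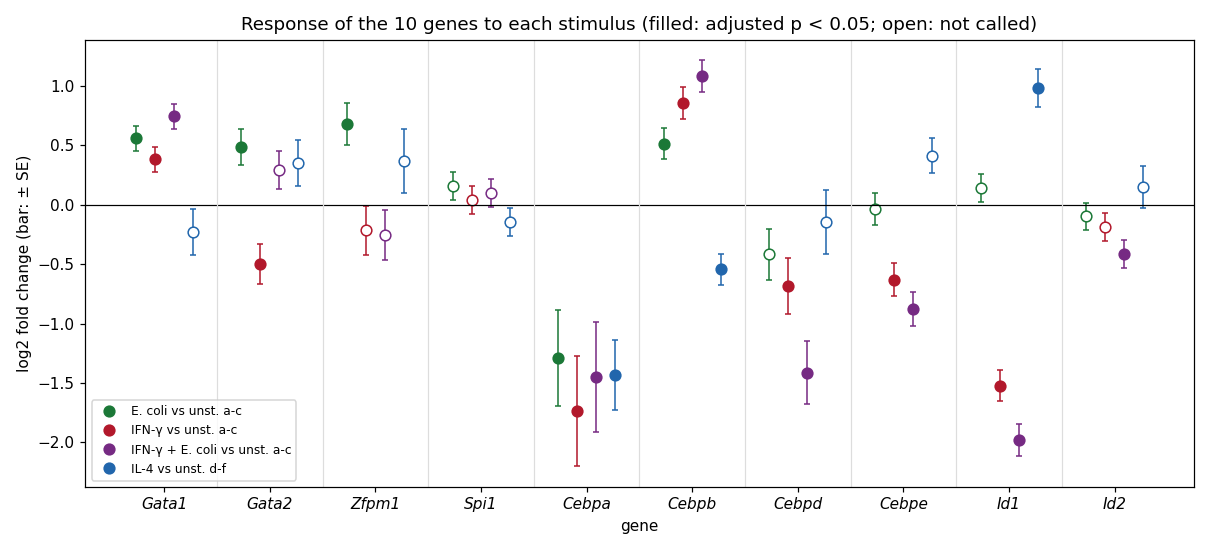
Log2 fold change of each gene (points, with bars of ± SE) for *E. coli*, IFN-γ and both against controls a to c and for IL-4 against controls d to f. Filled points passed an adjusted p of 0.05, and *Cebpa* is filled and below 0 for all 4 stimuli, while *Id1* is at -1.98 after both stimuli and at 0.98 after IL-4. The *Cebpa* calls after *E. coli* and after both were lost with DESeq2.

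Stimuli of the same set were also compared directly. Both stimuli against IFN-γ alone asks what *E. coli* adds in the presence of IFN-γ, and *Gata1* (0.36 ± 0.10, adjusted p = 0.0282) and *Gata2* (0.79) were higher and *Id1* (-0.46) lower, 2 and 1 of 10, where 6.25% and 5.98% of all genes were called. *Id2* was lower in 3 of 3 both-stimuli libraries but not called (-0.23 ± 0.11, adjusted p = 0.231), except with library totals alone (-0.30, adjusted p = 0.0399, with 0.0399 to 0.449 over all alternatives). The *Gata1* call held in 6 of 14 alternatives. It was lost with library totals alone (adjusted p = 0.061), without the filter (0.113), in a fit of those 6 libraries (0.0563) and without IFN-γ library 1 (0.0873), 2 (0.115) and 3 (0.0607) or both-stimuli library 1 (0.0979) and 2 (0.0597), over a range of 0.0117 to 0.115. Both stimuli against *E. coli* alone asks what IFN-γ adds, and *Cebpb* was higher and *Zfpm1*, *Cebpd*, *Cebpe*, *Id1* and *Id2* were lower, 1 and 5 of 10 against 17.5% and 15.3%. IFN-γ against *E. coli* gave 0 of 10 higher and 4 lower, *Gata2*, *Zfpm1*, *Cebpe* and *Id1*, against 14.1% and 11.5%. *Cebpb* alone had a positive log2 fold change, with an unadjusted p under 0.05, and the 4 calls of edgeR were also the number that DESeq2 made.

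The interaction asks whether the effect of both stimuli departs from the sum of the separate log2 effects. With edgeR 0 of the 10 genes were called in either direction, where 2.58% of all genes were called higher and 2.04% lower. At an unadjusted p under 0.05 there were 3, *Zfpm1* (-0.72 ± 0.28, adjusted p = 0.188), *Cebpa* (1.58 ± 0.73, adjusted p = 0.28) and *Id1* (-0.60 ± 0.19, adjusted p = 0.0774). The share of all genes at this looser threshold was not counted, so the 3 cannot be set against the percentages above. At an adjusted p under 0.05 DESeq2 called 0 of the 10. *Id1* was called without the filter (-0.67, adjusted p = 0.0382) and without both-stimuli library 3 (-0.75, adjusted p = 0.0234), with 0.0234 to 0.172 over all alternatives. *Cebpb* was at -0.29 ± 0.19, adjusted p = 0.495, and was called with the identifier correction (-0.75, adjusted p = 0.0336), with 0.0336 to 0.733 over all alternatives.

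Whether IL-4 acts differently from both type 1 stimuli was tested in a fit of all 18 libraries, as the difference of log2 fold changes, each within its own set. *Cebpd* (1.21 ± 0.35, adjusted p = 0.00865), *Cebpe* (1.23 ± 0.21, adjusted p = 7.58e-05) and *Id1* (2.90 ± 0.21, adjusted p = 5.68e-10) responded higher to IL-4, 3 of 10 where 18.5% of all genes did. *Gata1* (-1.03 ± 0.22, adjusted p = 0.000657) and *Cebpb* (-1.68 ± 0.19, adjusted p = 5.64e-07) responded lower, 2 of 10 where 20.7% did. These 5 were called in every alternative run. Without control e *Gata1* was at -0.74, adjusted p = 0.000396, and with library totals alone at -0.65, adjusted p = 0.0116, with 1.04e-05 to 0.0116 over all alternatives. Neither *Cebpd* nor *Cebpe* was called after IL-4 itself. The *Cebpa* responses did not differ by the test (-0.04 ± 0.74, adjusted p = 0.992, or 0.34 with library totals alone), with an SE that leaves a wide range, nor did those of *Spi1* (-0.31 ± 0.16, adjusted p = 0.149, or 0.07 with library totals alone), which was called without control b (-0.42, adjusted p = 0.0395, with 0.0395 to 0.723 over all alternatives). *Id2* was at 0.50 ± 0.21, adjusted p = 0.0624, and was called in 6 of 18 alternatives, among them library totals alone (0.86, adjusted p = 0.00245), the identifier correction (0.79, adjusted p = 0.00395) and without control d (0.0189) and f (0.0444), while without control e it was 0.30, adjusted p = 0.15, with 0.00245 to 0.15 over all alternatives. Scaling by library totals alone moved the median of all genes by 0.37 in this comparison, and under it *Zfpm1*, at 0.55 ± 0.32, adjusted p = 0.187 with TMM, was called (0.93, adjusted p = 0.0234, with 0.0234 to 0.401 over all alternatives). The sets differ in layout, in total counts and in the ceiling of the counts, which cannot be told apart from the stimuli here.

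Among 7 other factor genes of granulocyte development, all tested, *E. coli* raised 2 and lowered 2 (list median 0.09 against -0.02 for all genes), IFN-γ raised 1 and lowered 5 (-0.60 against -0.03), both raised 1 and lowered 5 (-0.89 against -0.04), and IL-4 raised 2 and lowered 0 (0.46 against 0.00). *Ikzf2*, encoding Helios, fell after *E. coli* (log2 fold change -1.95 ± 0.24, adjusted p = 4.76e-06), after IFN-γ (-0.76 ± 0.22, adjusted p = 0.0142) and after both (-1.57 ± 0.24, adjusted p = 3e-05). *Xbp1*, which eosinophil precursors need to mature, fell after IFN-γ (-0.91 ± 0.13, adjusted p = 1.95e-05) and after both (-0.89 ± 0.13, adjusted p = 1.17e-05). *Gfi1*, a repressor gene of granulocyte maturation, rose after *E. coli* (1.40 ± 0.28, adjusted p = 0.000907). *Myb*, a progenitor factor gene, had 36, 10 and 16 counts in controls a, b and c and 2, 2 and 1 after both, and 8, 25 and 11 in controls d, e and f and 149, 126 and 82 after IL-4. It fell after *E. coli* (-2.70 ± 0.50, adjusted p = 0.000375) and IFN-γ (-2.37 ± 0.52, adjusted p = 0.00172), was called lower after both (adjusted p = 0.000322), where no library exceeded the floor of 3 counts, and rose after IL-4 (3.01 ± 0.30, adjusted p = 0.000223).

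For the 9 members called against controls a to c, the 3 genes of most similar pattern among the 9882 other genes tested were found by Pearson's r of log2 CPM over the 12 libraries of the set, which fall into 4 groups, so that any genes with the same group differences score high. The genes closest to *Gata1* were *Olr1* (0.974), *Nadk* (0.972) and *Acpp* (0.970). Those closest to *Gata2* were *Pim2* (0.904), *Pecam1* (0.898) and *Tes* (0.891), and those closest to *Zfpm1* were *Bysl* (0.937), *Slc25a44* (0.920) and *Idh3a* (0.915). Among the C/EBP genes, *Ripor1* (0.917), *Slc41a3* (0.910) and *Nipsnap2* (0.899) ran closest to *Cebpa*. The pattern of *Cebpb* was nearest to the amino acid and glucose transporter genes *Slc3a2* (0.984) and *Slc2a1* (0.979) and to *Triobp* (0.980). *Cebpd* had *Sirt7* (0.975), *Nfic* (0.963) and *Abi3* (0.962), and *Cebpe* had the leukotriene receptor gene *Ltb4r1* (0.974), *Pigyl* (0.972) and *Paqr7* (0.969). The highest r values were those of *Id1*, with *Cd244a* (0.990), *3110082I17Rik* (0.988) and *Spn* (0.987), and *Id2* had *Fadd* (0.929), *Arrb2* (0.908) and *Ttf2* (0.902).

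Promoter windows, from 250 bases before to 50 after a transcript start, were found in the RefSeq table of build GRCm38.p6 for 6 of the 10 members, in 7 windows, and not for *Spi1*, *Cebpd*, *Cebpe* and *Id1*. They were searched on both strands for GATA letters (AGATAA or TGATAA), the C/EBP palindrome TTGCGCAA and its looser form TTNCNNAA, which the palindrome also matches, PU.1 (GAGGAAG), NF-κB (GGGNNTTCC), the IFN-γ activated site (TTCNNNGAA) and the STAT6 site, TTC and GAA with 4 bases between. Of 32851 promoters, 18.6% held the GATA letters, 0.183% the palindrome, 40.7% the looser form, 13.6% the PU.1 letters, 5.82% the NF-κB letters, 8.3% the IFN-γ activated site and 6.95% the STAT6 site. Across the 7 windows there was 1 match, to the looser C/EBP form, in the second *Gata2* window (chr6:88198414-88198713, plus strand, 73.7% G and C), where it starts at base 133. That window is shown for its match, in capitals, and the *Cebpb* window (chr2:167688665-167688964, plus strand, 80.7% G and C) as that of the C/EBP gene that rose with all 3 type 1 stimuli, in which no letters matched. A match is a run of letters and not a measured binding site.
*Gata2* second window: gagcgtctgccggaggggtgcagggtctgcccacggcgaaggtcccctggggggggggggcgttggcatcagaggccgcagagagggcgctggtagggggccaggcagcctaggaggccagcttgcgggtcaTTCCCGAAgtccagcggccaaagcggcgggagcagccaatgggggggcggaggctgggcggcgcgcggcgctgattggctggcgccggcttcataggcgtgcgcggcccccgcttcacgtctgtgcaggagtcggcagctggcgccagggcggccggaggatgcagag
*Cebpb* window: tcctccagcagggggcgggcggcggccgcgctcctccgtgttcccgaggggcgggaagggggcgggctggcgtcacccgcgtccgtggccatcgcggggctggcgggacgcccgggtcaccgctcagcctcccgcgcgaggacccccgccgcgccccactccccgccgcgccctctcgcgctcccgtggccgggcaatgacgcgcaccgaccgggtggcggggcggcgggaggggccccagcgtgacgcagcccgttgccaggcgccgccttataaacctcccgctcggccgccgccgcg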

How the data were processed

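The deposited counts are whole numbers for each Ensembl gene in each library, which the authors made and did not normalize. CEL-Seq2 is the library method the sources name, with Tophat2 2.1.0 for alignment to GRCm38 and HTSeq 0.6.1 for counting, and the labels also name fastp 0.20.1, STAR 2.7.2a and another sequencer without saying for which libraries. Whether identifiers were collapsed and whether counting used strand are not given in the sources used here. Entries naming no gene held 21.1% to 39.4% of the counts in the 12-library set and were left out. In every group the libraries varied by more than counting error (chi-square per gene between library pairs 1.64 to 23.7).

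R 4.3.3 with edgeR 4.0.16 was used: filterByExpr, TMM, the quasi-likelihood F test and Benjamini-Hochberg adjustment over all genes tested, which were 9883 in the 12-library set, 10556 in the 6-library set and 10671 in the fit of all 18 libraries. A call is an adjusted p under 0.05. SE is the log2 fold change divided by the root of F. A level of 3 counts, 1.10 to 1.97 CPM in the former set and 0.463 to 0.828 CPM in the latter, was taken as the floor, and intervals and floors cover counting error only. Positions are from GENCODE for GRCm38.

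The 10 members and the gene lists were chosen with earlier results of these data known. Every member is named, and for each list some of the 4 genes with the largest absolute log2 fold change in a comparison, among called genes without overlap between groups. Which of the 4 were named, and through which stimuli they were followed, was chosen after their values were seen. *Gata6*, *Tcf12*, *Tcf3* and *Id3* were added after their values were seen, and *Tmem189*, *Spidr* and *Gm45091* because their exons overlap those of members. Lists cover GATA complex, ETS, IRF and RUNX, C/EBP partner, E protein, granulocyte factor, eosinophil granule and neutrophil granule genes, and markers of 10 cell types. Alternatives were DESeq2 1.42.0 size factors or test, other filters, a change by a factor of 2, leaving out each library, other sets of libraries in the fit, the replicate number as a block and, chosen after seeing the data, library totals without TMM and a correction for colliding identifiers, which takes a count n of N sequences as -N ln(1 - n/N). The code was tested on simulated data.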

Additional observations from a re-analysis of the deposited data

Results flagged for a closer look

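The response to IL-4 was tested against the response to IFN-γ with *E. coli*, as the difference itself, in the fit of all 18 libraries. It differed for 5 of the 10 genes and for 4184 of all 10671 genes tested. Of the 10 genes 3 were called higher, where 18.5% of all genes were, and 2 lower, where 20.7% were. On the log2 scale the difference was -1.03 for *Gata1*, -1.68 for *Cebpb*, 1.21 for *Cebpd*, 1.23 for *Cebpe* and 2.90 for *Id1*, negative where the response to IL-4 was the lower. Scaled by library totals alone, that of *Gata1* was -0.65. Each response was measured against the unstimulated libraries of its own set, and the differences between the sets in layout, total counts and count ceiling cannot be told apart from the stimuli.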

How the results depend on the processing

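Of the values of single members under other choices, 1173 kept direction and side of the threshold, 56 fell below it, 27 passed it and 41 turned direction, and the cause was not tested. *Cebpa* had the fewest counts of the members, 2 to 19 per library in the 12-library set. DESeq2 gave no adjusted p for 1 member in the interaction, which has no value there.

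Requiring a factor of 2 left 1023 genes and 1 member with *E. coli*, 1187 and 2 with IFN-γ, 2210 and 4 with both, 478 and 1 with IL-4, 404 and 0 for both against IFN-γ, 1325 and 1 for both against *E. coli*, 1027 and 1 for IFN-γ against *E. coli*, 245 genes for the interaction and 2728 for the IL-4 against the type 1 response. Without the filter IL-4 gave 1634 genes and the interaction 630 genes and 1 member. The fit of 18 libraries gave 1892 genes for IL-4 and 2804 genes and 4 members for IFN-γ. A fit of 6 libraries gave 940 genes and 1 member for both against IFN-γ. The identifier collision correction, which like library totals alone was chosen after seeing the data, gave 522 genes and 1 member for the interaction. Leaving out a library gave 2160 to 2753 genes and 3 to 5 members with *E. coli* (2986 and 5 in the main fit). With IFN-γ it gave 2220 to 2846 genes and 4 to 6 members (3120 and 7 in the main fit). With a library left out, IL-4 gave 483 to 1394 genes and 1 to 4 members. Both against IFN-γ then gave 740.0 to 1122 genes and 1 to 3 members, and the interaction 266 to 562 genes and 0 to 1 members.

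Directions turned as follows. For *Cebpe* with *E. coli*, 0.00201 without the filter. For *Spi1*, -0.13 with IFN-γ, -0.15 with both, -0.0145 for both against IFN-γ and 0.0662 for the response difference under library totals alone, -0.0645 and -0.0308 with IFN-γ and both under the collision correction, and -0.0101 with IFN-γ at 10 counts or more in every library. *Gata1* for both against *E. coli* was -0.0457 under library totals alone. In the response difference *Gata2* was -7.79e-05 with DESeq2 size factors and -0.00443 with DESeq2, and *Cebpa* 0.34 under library totals alone, 0.00687 without the filter and 0.011 with the collision correction. Leaving out a library spanned -0.16 to 0.16 for *Cebpe* and -0.18 to 0.000914 for *Id2* with *E. coli*, -0.017 to 0.18 for *Spi1* with IFN-γ, -0.40 to 0.0675 for *Gata1* and -0.053 to 0.29 for *Id2* with IL-4, and -0.13 to 0.0922 for *Zfpm1* for both against IFN-γ. For both against *E. coli* it spanned -0.13 to 0.00293 for *Spi1* and -0.57 to 0.32 for *Cebpa*, for IFN-γ against *E. coli* -0.89 to 0.0309 for *Cebpa* and -0.14 to 0.00363 for *Id2*, and for the response difference -0.17 to 0.19 for *Gata2* and -0.28 to 0.14 for *Cebpa*.

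The stimulated libraries of the 12-library set share replicate numbers. After removing group means, same-numbered libraries correlated at -0.0022, 0.173 and -0.0163 between *E. coli* and IFN-γ, at 0.0706, 0.0986 and 0.163 between *E. coli* and both and at -0.045, 0.212 and 0.331 between IFN-γ and both, so the numbers were not taken as pairs, and not every library correlated best with its own number. Whether they mark a shared batch is not settled by these values. With the number as a replicate block, 2750.0 genes were called for IFN-γ against *E. coli* (2525 in the main fit), 3447 for both against *E. coli* (3240.0) and 1430.0 for both against IFN-γ (1209). A fit of only the 6 libraries compared, without a block, gave 2757, 2883 and 940 in the same order. The block was run for comparisons among stimulated groups only, and its own part in these counts was not tested. Among members, *Cebpb* was called with the replicate block for both against IFN-γ (0.22, adjusted p = 0.0416) and for IFN-γ against *E. coli* (0.34, adjusted p = 0.0013). The latter was also called without a block in the fit of the 6 libraries compared (0.34, adjusted p = 0.0381).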

Other observations

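The eosinophil granule and receptor genes were described in the same way as a list of 11, of which 7 were tested in the 12-library set and 11 in the other. *Prg3*, *Epx*, *Ear1* and *Ear2* were not tested in the former. Of all genes, 13.5% were called higher and 16.7% lower after *E. coli*, and 15.6% and 16.0% after IFN-γ. The shares were 23.9% and 25.2% after both and 5.97% and 4.35% after IL-4. After *E. coli* 1 rose and 2 fell (list median -0.19 against -0.02 for all genes), after IFN-γ 1 rose and 4 fell (-0.37 against -0.03), after both 2 rose and 4 fell (-0.60 against -0.04) and after IL-4 4 rose and 1 fell (0.23 against 0.00). *Siglecf*, an eosinophil surface lectin gene, averaged 1020.4 ± 127 normalized CPM in controls a to c, 636 ± 20.1 after *E. coli*, 626 ± 81.9 after IFN-γ and 348 ± 24.8 after both (SD, n = 3), and fell after each (log2 fold change -0.68 ± 0.12, adjusted p = 0.000249, then -0.70 ± 0.12, adjusted p = 0.000177, and -1.55 ± 0.12, adjusted p = 7.54e-09). *Ear6*, a gene of the eosinophil ribonucleases, rose after *E. coli* from 36.6 ± 8.57 to 87.5 ± 6.59 (1.29 ± 0.16, adjusted p = 4.44e-06), fell after IFN-γ (-0.93 ± 0.19, adjusted p = 0.001), rose after both (0.52 ± 0.17, adjusted p = 0.0153, groups that overlapped) and rose after IL-4 from 138 ± 8.74 to 348 ± 18.8 (1.34 ± 0.12, adjusted p = 9.89e-05). *Prg2*, the gene of major basic protein, fell after both (-1.13 ± 0.21, adjusted p = 0.000184) and rose after IL-4, from 35.1 ± 11.1 to 63 ± 4.09 (0.83 ± 0.21, adjusted p = 0.0291). *Il5ra*, the IL-5 receptor gene, fell after both (-1.28 ± 0.15, adjusted p = 8.21e-07) and rose after IL-4 (0.60 ± 0.14, adjusted p = 0.0204), while *Ccr3* fell after IL-4 (-0.72 ± 0.15, adjusted p = 0.0117).

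Of 5 neutrophil granule genes that C/EBPε is known to act on, *Ltf*, *Camp* and *Ngp* were too low to test and *Mmp8* and *Lcn2* were tested. *Mmp8* averaged 9.9 ± 0.35 normalized CPM in controls a to c, 29.7 ± 3.84 after *E. coli*, 38 ± 7.49 after IFN-γ and 204 ± 8.67 after both, and rose after each, by 4.36 ± 0.17, adjusted p = 4.92e-13, on the log2 scale after both. *Lcn2* rose after *E. coli* (1.64 ± 0.24, adjusted p = 3.08e-05) and after both (0.90 ± 0.24, adjusted p = 0.00429), fell after IFN-γ (-1.30 ± 0.26, adjusted p = 0.000897) and fell after IL-4 from 161 ± 21 to 30 ± 3.65 (-2.42 ± 0.16, adjusted p = 2.63e-05). *Mmp8* also fell after IL-4 (-1.59 ± 0.44, adjusted p = 0.0441). Of 6 neutrophil markers *Retnlg* was the most abundant in all 18 libraries, with *Mpo* at 0 in 9 and *Elane* in 10. The 6 markers summed to 558, 688 and 550.1 in controls a, b and c, 351, 340.0 and 402 after *E. coli*, 680.1, 625 and 734 after IFN-γ, 330.1, 396 and 425 after both, 1993, 1944 and 1676 in controls d, e and f and 778, 807 and 732 after IL-4. Their part in these values was not tested.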
